A study of Mus musculus with 18 samples.

Results

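Of the 37643 H3K4me2 peaks called in granulocyte-monocyte progenitors (GMPs), 8381 peaks (22.3%) touched no H3K4me2 peak of preneutrophils (preNeu) or mature neutrophils (matNeu). These GMP-only peaks were chosen by the measured peak calls: a GMP peak was kept when not even 1 bp of it was covered by a peak of either later stage. Their number, width and enrichment therefore describe the choice and carry no test. The remaining GMP peaks were 26131 peaks with a peak in all 3 stages, 2722 peaks shared with preNeu alone and 409 peaks shared with matNeu alone. As membership rests on 1 library per stage, a GMP-only peak is a region without a call later, which is not the same as a region without the mark.

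All cells came from bone marrow of adult C57BL/6 mice, 6 to 12 weeks old, which were wild type except for 1 CHD4 library from Gfi1-/- GMPs. H3K4me2 was profiled by ChIP-seq in GMPs, preNeu and matNeu, CHD4 in WT and Gfi1-/- GMPs, and open chromatin by ATAC-seq in preNeu and matNeu, with 1 library each. GMPs were sorted from marrow depleted of lineage-positive cells. RNA-seq was done on 3 libraries for each of the 3 stages. The cell type field of the labels named another stage than the title for 13 of the 18 samples, among them the H3K4me2 libraries of preNeu and matNeu, and the titles were followed. In the RNA libraries the levels of stage markers followed the titles. The titles of the ChIP-seq and ATAC-seq libraries, which hold no RNA, could not be checked in this way. Cd34, the surface sialomucin used to sort GMPs, was at 470 ± 39.0 TPM (transcripts per 1000000 transcripts; SD, n = 3) in the GMP libraries and at 2.21 ± 1.02 and 1.92 ± 0.402 TPM in preNeu and matNeu. Ltf, the secondary granule protein lactoferrin, was highest in preNeu, and Cxcr2, the chemokine receptor of circulating neutrophils, was at 3468 ± 478 TPM in matNeu against 9.23 ± 2.30 TPM in GMPs.

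H3K4me2 is placed at promoters and enhancers that are active or poised, and its pattern away from promoters differs between cell types more than its pattern at promoters does. GMPs give rise to neutrophils and monocytes, and on the way to neutrophils they close down stem cell and monocyte programmes. GFI1 is a transcriptional repressor needed for neutrophil development, and CHD4 is the ATPase of the NuRD complex, which remodels nucleosomes and removes acetyl groups from histones.

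Sequences of 8 regions are given first, since the results below turn on what such regions hold. They are written 5′ to 3′ on the plus strand of GRCm38, and names refer to the nearest protein-coding gene. The first 3 regions are whole peaks from among the 10 with the highest fold enrichment, and capitals mark TA repeated 5 times or more in a row. Their positions are chrX:56855587-56855770, chr10:68917528-68917815 and chr9:117865505-117865757.
Adgrg4 TA-run peak: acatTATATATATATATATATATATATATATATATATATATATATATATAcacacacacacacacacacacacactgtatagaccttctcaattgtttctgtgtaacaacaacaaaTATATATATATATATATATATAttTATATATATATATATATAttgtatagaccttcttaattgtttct
Tmem26 TA-run peak: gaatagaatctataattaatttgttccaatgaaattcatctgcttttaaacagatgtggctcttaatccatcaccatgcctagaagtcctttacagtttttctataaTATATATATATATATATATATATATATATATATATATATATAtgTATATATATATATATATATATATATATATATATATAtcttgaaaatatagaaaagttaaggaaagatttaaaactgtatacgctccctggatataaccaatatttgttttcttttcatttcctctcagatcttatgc
Azi2 TA-run peak: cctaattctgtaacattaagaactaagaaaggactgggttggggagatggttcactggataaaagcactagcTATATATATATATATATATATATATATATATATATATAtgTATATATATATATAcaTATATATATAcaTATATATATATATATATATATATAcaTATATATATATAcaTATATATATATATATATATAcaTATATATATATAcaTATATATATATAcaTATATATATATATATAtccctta
The next 2 regions are promoter peaks of high enrichment, of which 200 bases are shown with CG in capitals. They lie at chr19:36736667-36736866 and chr5:114658422-114658621.
Ppp1r3c promoter peak: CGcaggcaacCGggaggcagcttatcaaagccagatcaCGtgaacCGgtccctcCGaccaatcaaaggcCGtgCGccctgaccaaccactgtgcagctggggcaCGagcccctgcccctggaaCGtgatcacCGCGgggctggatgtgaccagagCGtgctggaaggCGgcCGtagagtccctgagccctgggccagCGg
Trpv4 promoter peak: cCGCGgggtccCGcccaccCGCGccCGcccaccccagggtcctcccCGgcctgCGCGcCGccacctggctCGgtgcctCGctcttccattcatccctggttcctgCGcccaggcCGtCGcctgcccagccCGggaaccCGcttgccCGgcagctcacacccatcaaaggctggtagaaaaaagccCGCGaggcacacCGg
The next 2 regions are the 200 bases around CHD4 summits inside GMP-only peaks that were farther than 200 kb from a gene start. They were chosen by high CHD4 enrichment among sites with the PU.1 (SPI1) core GAGGAAGT, which is in capitals. They lie at chr4:55811751-55811950 and chr10:14189215-14189414.
Klf4 CHD4 site: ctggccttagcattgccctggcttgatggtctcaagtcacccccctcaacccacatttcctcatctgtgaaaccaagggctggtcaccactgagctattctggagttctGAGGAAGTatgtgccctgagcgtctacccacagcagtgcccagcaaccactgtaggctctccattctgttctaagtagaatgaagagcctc
Hivep2 CHD4 site: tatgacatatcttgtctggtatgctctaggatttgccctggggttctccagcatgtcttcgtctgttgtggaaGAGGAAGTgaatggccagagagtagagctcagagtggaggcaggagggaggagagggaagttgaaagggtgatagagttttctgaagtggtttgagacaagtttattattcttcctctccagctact
The last is the 250 bases before the RefSeq start of Irf8, at chr8:120736108-120736357, which the widest GMP-only peak covered. Capitals mark the single match to any of the 9 motifs searched, which is the reverse complement of AAATCAC, the core of the GFI1 motif.
Irf8 promoter: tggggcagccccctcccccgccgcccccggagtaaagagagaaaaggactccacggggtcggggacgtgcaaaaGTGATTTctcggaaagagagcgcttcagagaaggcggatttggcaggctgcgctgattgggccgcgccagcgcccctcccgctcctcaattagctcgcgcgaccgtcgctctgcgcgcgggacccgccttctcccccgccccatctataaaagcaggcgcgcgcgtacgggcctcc

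GMP-only peaks were mostly narrow and weak. Their median width was 442 bp (interquartile range 280 to 691 bp), against 1287 bp for the peaks of all 3 stages, and they held 4.57 Mb or 9.16% of the length covered in GMPs. Fold enrichment over the peak caller's background had a median of 2.57, against 3.14. Among GMP-only peaks 1065 (12.7%) had −log10 q of 3 or more, and 53.0% of the peaks of all 3 stages did. The later lists covered more of the genome, with 97.9 Mb in preNeu and 80.4 Mb in matNeu against 49.8 Mb in GMPs.

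The nearest later peak was a median of 7.83 kb away. A gap under 100 bp was found for 222 GMP-only peaks, and 887 peaks (10.6%) had no later peak within 100 kb. The 222 peaks just inside the limit were 383 bp wide and enriched 2.53-fold at the median. The 328 GMP peaks just outside it, which overlapped a later peak by 1 to 100 bp, were 402 bp wide and enriched 2.55-fold. The limit therefore ran through peaks of like size.

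The GMP-only peaks of highest enrichment were runs of TA. A run of at least 10 TA repeats (20 bases) was present in 709 of 8381 GMP-only peaks (8.46%, 95% Wilson interval 7.88 to 9.07%) and in 163 of 26131 peaks of all 3 stages (0.62%). The difference was 7.84 percentage points (Newcombe interval 7.25 to 8.46). These intervals, like all others on shares, hold counting error alone, without any spread between libraries. Among peaks found only in preNeu the run was present in 10 of 8470 (0.118%), and among those found only in matNeu in 20 of 3534 (0.566%).

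The share with a TA run climbed with enrichment. It was 0.462% for GMP-only peaks under a fold enrichment of 2.5, 3.60% from 2.5 to 3, 31.1% from 3 to 3.5 and 62.7% from 3.5 to 4. At 4 or more it was 146 of 178 peaks (82.0%, 75.7 to 87.0%). Among peaks of all 3 stages the same share stayed between 0.257% and 0.92% in every bin of enrichment. The TA-run peaks had a median width of 291 bp, 27.0% GC and 56.5% of their bases masked as repeats, and lay a median of 116 kb from a gene start. Peaks without such a run had 475 bp, 49.0% GC, 12.5% masked and 17.7 kb.

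**Figure D1:**
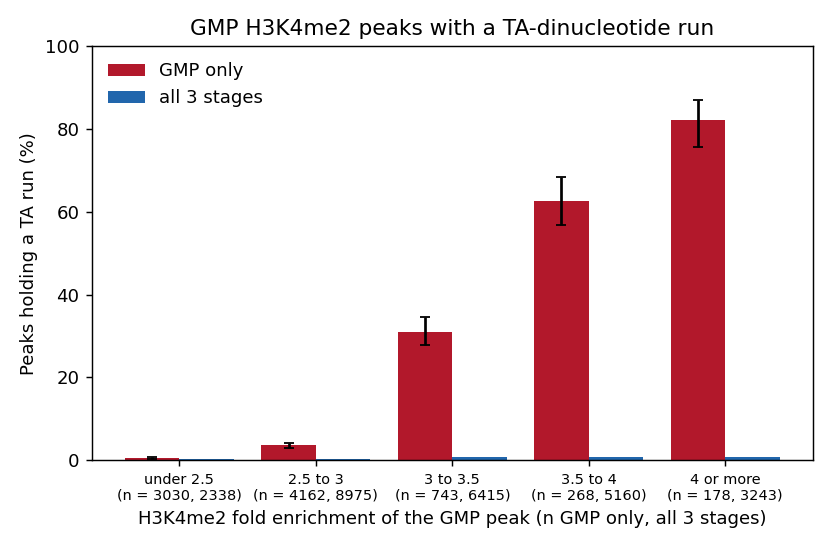
Share of peaks with a run of at least 10 TA repeats (y axis, percent) by the fold enrichment of the peak (x axis), for GMP-only peaks, with 95% Wilson intervals as error bars, and for peaks of all 3 stages, without error bars. The GMP-only share climbs from 0.462% to 82.0%, and the share of the others stays under 1% in each bin.

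The 10 GMP-only peaks of highest fold enrichment, from 6.98 to 5.52, all held a TA run of 38 to 60 bases, and none overlapped a CHD4 peak. They were nearest to Grid1, Lmod2, Fasl, Adgrg4, Tmem26, Azi2, Tmem182, Adgrl4, Cntnap5b and Btg1. Grid1 (a glutamate receptor subunit gene), Lmod2 (an actin nucleator of heart muscle), Fasl (the death ligand of cytotoxic lymphocytes), Adgrg4, Tmem182 and Cntnap5b were under 1 TPM on average in every stage. Of the 4 other genes, Azi2, an adaptor in interferon signalling, was at 104, 111 and 98.2 TPM in GMPs, 77.5, 94.8 and 105 TPM in preNeu and 108, 124 and 107 TPM in matNeu. Its groups overlapped and neither change from GMPs passed the test. Adgrl4 was at 85.9 to 95.8 TPM in GMPs and 0.638 to 5.68 TPM in matNeu, but its peak lay 1220 kb from the gene.

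CHD4 was called over 10 of the 709 TA-run peaks (1.41%, 0.768 to 2.58%) and the ATAC list held 1 of them. A TA run was rare in the other lists, at 21 of the 35790 CHD4 peaks of WT GMPs, 3 of the 7316 of Gfi1-/- GMPs and 5 of the 16307 ATAC peaks. The preNeu and matNeu H3K4me2 lists held such a run in 1.04% and 0.968% of their peaks, most of them in peaks shared between stages. Base composition and repeat content moved with the enrichment of GMP-only peaks, and their part in these peak calls was not tested.

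Without the TA runs, 32 GMP-only peaks reached a fold enrichment of 4. Of these, 23 (71.9%) were at promoters, a median of 0.165 kb from a gene start, with 64.0% GC and 6.97 CG per 100 bases. The peak at Ppp1r3c, a glycogen-targeting subunit of protein phosphatase 1, had a fold enrichment of 4.40, and all 9 RNA libraries listed the gene at 0 TPM. The peak at Trpv4, a calcium-permeable channel, had 4.31, and the gene was at 1.07, 0.796 and 0.305 TPM on average in GMPs, preNeu and matNeu. Both regions are printed above.

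Most GMP-only peaks lay away from promoters. The midpoint of 997 peaks (11.9%, 11.2 to 12.6%) fell in a promoter, from 2 kb upstream to 500 bp downstream of an annotated start, against 38.1% of the other GMP peaks, a difference of −26.2 percentage points (−27.1 to −25.3). The share at promoters was 22.7% in the members with −log10 q of 3 or more and 35.5% when every list was held to that value. Introns held 2786 (33.2%), coding exons 142 (1.69%), 3′ UTRs 101 (1.21%), 5′ UTRs 9 (0.107%), genes other than protein-coding 683 (8.15%) and intergenic sequence 3663 (43.7%). A distance of more than 10 kb from any start was found for 64.3%, and of more than 100 kb for 18.1%. The latter share was 4.38% for the peaks of all 3 stages.

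By chromosome, the share of GMP peaks that were GMP-only ran from 12.2% on X (74 of 607) to 29.5% on chromosome 1 (765 of 2593). On Y it was 17 of 24 peaks, too few to place closely (50.8 to 85.1%).

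Genes whose promoter held only GMP-only peaks mostly had little RNA. At 648 protein-coding genes every GMP peak at the promoter was GMP-only. Of the 647 with a row in the expression table, 87 (13.4%) reached the filter for testing (at least 1 TPM in at least 3 of 9 libraries), and their median level in GMPs over all 647 was 0.0211 TPM. Genes whose promoter peaks were in all 3 stages passed that filter in 84.6% of cases, with a median of 21.9 TPM, and genes with no GMP peak at the promoter in 11.9%. Another 320 genes had a GMP-only peak and another GMP peak at the promoter, and of these 210 (65.6%) passed the filter, with a median of 2.72 TPM and 101 at 10 TPM or more in GMPs. The promoter peaks that were GMP-only held 5.70 CG per 100 bases at the median, against 4.04 for those in all 3 stages.

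Expression was compared by limma on log2(TPM + 1), with p-values adjusted over 13061 genes by Benjamini and Hochberg, and a gene rose or fell when its adjusted p was under 0.05. In bulk RNA, fewer cells of a type and less RNA per cell cannot be told apart. Among all 11878 protein-coding genes tested, 46.8% fell and 15.4% rose from GMPs to preNeu, and 57.3% fell and 22.5% rose from GMPs to matNeu. From preNeu to matNeu 42.8% fell and 22.6% rose. The median log2 change of all tested genes was −0.52 in preNeu and −0.92 in matNeu against GMPs, and single changes are to be read against these shifts. The 3 comparisons share libraries, and no source states whether libraries of a stage came from separate animals, so that p-values measure the spread between these libraries.

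Among the 87 tested genes whose promoter held only GMP-only peaks, 25 fell and 15 rose in preNeu, and 31 fell and 21 rose in matNeu. Of all tested protein-coding genes, 46.8% fell and 15.4% rose in preNeu, and 57.3% fell and 22.5% rose in matNeu. Falls were thus less frequent among the 87 than over all genes, but the groups were not matched for level. Of the 647 genes 64 were at 1 TPM or more in GMPs and 12 at 10 TPM or more, and log2(TPM + 1) understates the change of low genes. A ranking by RNA in GMPs, as used next, favours genes that fall. The 10 with the highest RNA in GMPs were Irf8, Tmem176b, Ifi209, Mcpt8, Serpina3g, Tmem176a, Khdrbs2, Brsk1, Klrk1 and Tmem72. Promoters were assigned by the midpoint of a peak, and Irf8 counted through a 640-bp peak at an internal annotated start, 14.4 kb into the gene. Tmem176b, a membrane protein of dendritic cells, was at 247, 210 and 279 TPM in GMPs, 8.94, 11.2 and 10.8 TPM in preNeu and 1.53, 0 and 2.56 TPM in matNeu. Its 3 groups did not overlap, and it fell by 4.44 ± 0.39 (SE) in preNeu and by 6.88 ± 0.39 in matNeu on the log2 scale (limma adjusted p = 5.7e-06 and 3.9e-08). A single 3513-bp peak covered its start and counted also for Tmem176a, its neighbour on the other strand.

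Mcpt8, a basophil protease, was at 117, 86.6 and 88.5 TPM in GMPs, 102, 55.3 and 71.5 TPM in preNeu and 0.481, 2.05 and 1.01 TPM in matNeu. GMPs and preNeu overlapped (log2 change −0.38 ± 0.30, adjusted p = 0.30), and the fall came in matNeu (−5.54 ± 0.30, adjusted p = 2.7e-08). Tmem72 was the one of the 10 that rose in matNeu, by 1.06 ± 0.23 (adjusted p = 0.0012). Ifi209, Serpina3g and Mcpt8 belong to multigene families, and their TPM values are uncertain as far as reads were split between copies.

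The widest GMP-only peak lay over Irf8, the transcription factor that directs GMPs to monocytes and dendritic cells. The peak was 9631 bp wide (chr8:120735113-120744743, fold enrichment 3.68) and ran from 1.25 kb upstream to 8.39 kb downstream of the gene's start, with its midpoint in a coding exon. Between 30 kb upstream and 100 kb downstream of the start, GMPs had 19 peaks covering 18.7 kb, and 18 of them were GMP-only. In the same window preNeu had 2 peaks (1.09 kb), at 15.6 and 95.5 kb, and matNeu had 1 peak (0.239 kb). CHD4 had 2 peaks in WT GMPs, of which 1 touched a GMP-only peak, and none in Gfi1-/- GMPs.

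**Figure D2:**
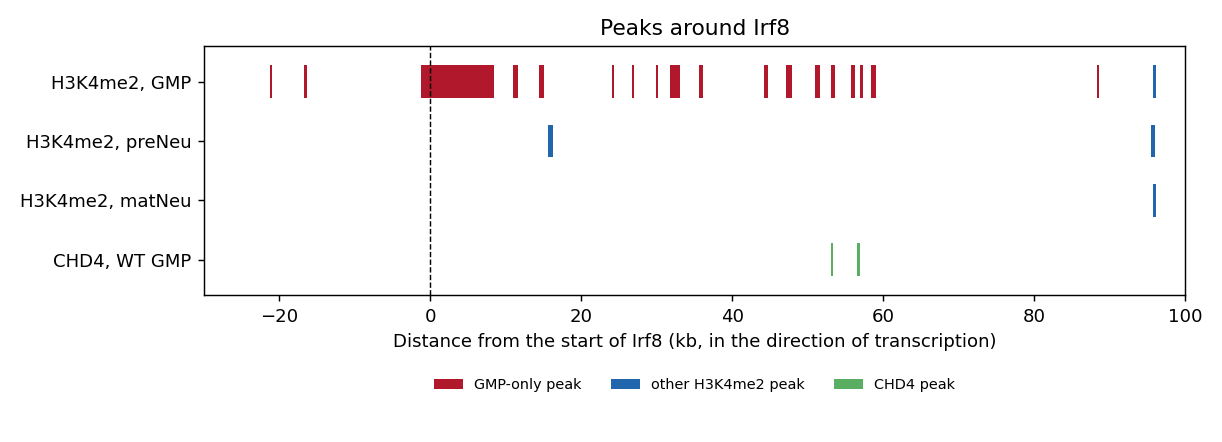
Peaks around the start of Irf8 (x axis, distance from the start in kb, from −30 to 100), with 1 row per list: H3K4me2 in GMPs, preNeu and matNeu, and CHD4 in GMPs. The GMP row holds 19 peaks, 18 of them GMP-only, and the preNeu and matNeu rows hold 2 and 1.

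Irf8 RNA was at 548, 509 and 483 TPM in GMPs, 10.8, 12.7 and 13.9 TPM in preNeu and 6.93, 7.60 and 19.2 TPM in matNeu. The GMP libraries stood apart from both later stages, which overlapped each other. Its log2 change was −5.26 ± 0.30 in preNeu (adjusted p = 3.5e-07) and −5.53 ± 0.30 in matNeu (adjusted p = 3.2e-08), and preNeu and matNeu did not differ by the test (−0.27, 95% interval −0.94 to 0.40, adjusted p = 0.46). Of the 9 motifs searched in the 250 bases before its start, which are printed above, only the GFI1 core was found. That core alone was present in 2.75% of all 32851 RefSeq windows of that length. It was singled out after the search of all 9 motifs. The share of windows with a match to any of the 9 was not computed. Whether such a match before a start is unusual was therefore not tested.

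Below Irf8, the widest GMP-only peaks were nearest to Ifi209, Lat2, Gpr183, Srgap3, Pag1, Pld4, Ahdc1, Tmem176b and Pdgfra, at 4475 to 3350 bp. These 10 were chosen after their values were seen, and width belongs to the values that the choice of members used. Ifi209, an interferon-inducible DNA sensor, was at 174, 158 and 146 TPM in GMPs, 2.13, 1.82 and 5.64 TPM in preNeu and 9.89, 10.5 and 13.3 TPM in matNeu. Lat2, an adaptor of immune receptors, was at 142, 105 and 122 TPM in GMPs, 5.65, 3.04 and 11.7 TPM in preNeu and 11.2, 15.5 and 11.1 TPM in matNeu. In both genes every GMP library was above every later one.

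Pld4, an exonuclease of endosomes in dendritic cells, was at 146 to 202 TPM in GMPs and at 5.92 to 15.4 TPM in the 6 later libraries. Gpr183, an oxysterol receptor of lymphocytes and dendritic cells, was at 13.2, 12.6 and 7.19 TPM in GMPs and at no more than 3.07 TPM later. The log2 change from GMPs to matNeu was −3.72 ± 0.30 for Ifi209, −3.19 ± 0.35 for Lat2, −3.94 ± 0.32 for Pld4 and −1.74 ± 0.41 for Gpr183 (adjusted p from 6.7e-07 to 0.0026). Pag1, a membrane adaptor, went the other way, with 7.76, 6.50 and 8.08 TPM in GMPs, 26.1, 32.5 and 26.2 TPM in preNeu and 113, 122 and 144 TPM in matNeu. It rose by 1.79 ± 0.17 and 3.91 ± 0.17. Ahdc1 and Pdgfra were under 1 TPM in every library.

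Over all genes whose widest GMP-only peak was at least 2000 bp (88 genes, 64 tested), 40 fell (62.5%) and 5 rose in preNeu, and 45 fell (70.3%) and 6 rose in matNeu. The shares of all tested protein-coding genes that fell were 46.8% and 57.3%, as above. With each library scaled to an equal median, which put the median log2 change of all genes at 0.02 in preNeu and 0.30 in matNeu, the shares that fell were 43.8% and 46.9%, against 23.6% and 34.1% of all genes tested. Genes whose widest GMP-only peak was narrower showed no such excess in matNeu. Without that scaling 51.2% fell under 400 bp, 48.9% from 400 bp, 52.5% from 800 bp and 52.9% from 1200 to 2000 bp. In preNeu these classes gave 41.8%, 44.9%, 45.3% and 54.3%, and only the last was above 46.8%.

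CHD4 in WT GMPs overlapped 1491 of the 8381 GMP-only peaks (17.8%, 17.0 to 18.6%). The share was 30.8% for the peaks of all 3 stages, a difference of −13.0 percentage points (−14.0 to −12.0), and 26.9% for those shared with preNeu. At promoters 9.43% of GMP-only peaks held a CHD4 peak, against 15.1% for all 3 stages. Outside promoters the shares were 18.9% and 41.3%.

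The difference depended on width. Outside promoters, GMP-only peaks under 250 bp held CHD4 in 9.82% of cases against 27.0% for peaks of all 3 stages of that width, and from 600 to 800 bp in 19.9% against 40.4%. From 800 to 1200 bp the shares were 32.2% and 43.9%, a difference of −11.7 points (−15.4 to −7.91). At 1200 bp and over they were 48.9% (204 of 417) and 47.4% (3007 of 6338), and the difference was 1.48 points (−3.45 to 6.42). At promoters of that width the GMP-only share was the higher one, at 29.1% (23 of 79) against 16.8%, by 12.4 points (3.46 to 23.2). Over all members of at least 800 bp, promoters included, the direction turned, with 35.0% against 31.2% and a difference of 3.80 points (1.26 to 6.41). Apart from promoters it did not turn, with 452 of 1187 (38.1%) against 4291 of 9260 (46.3%) and a difference of −8.26 points (−11.2 to −5.29). At promoters of at least 800 bp the shares were 18.2% (40 of 220) and 15.7%, and the interval of the difference held 0 (−2.10 to 8.17).

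**Figure D3:**
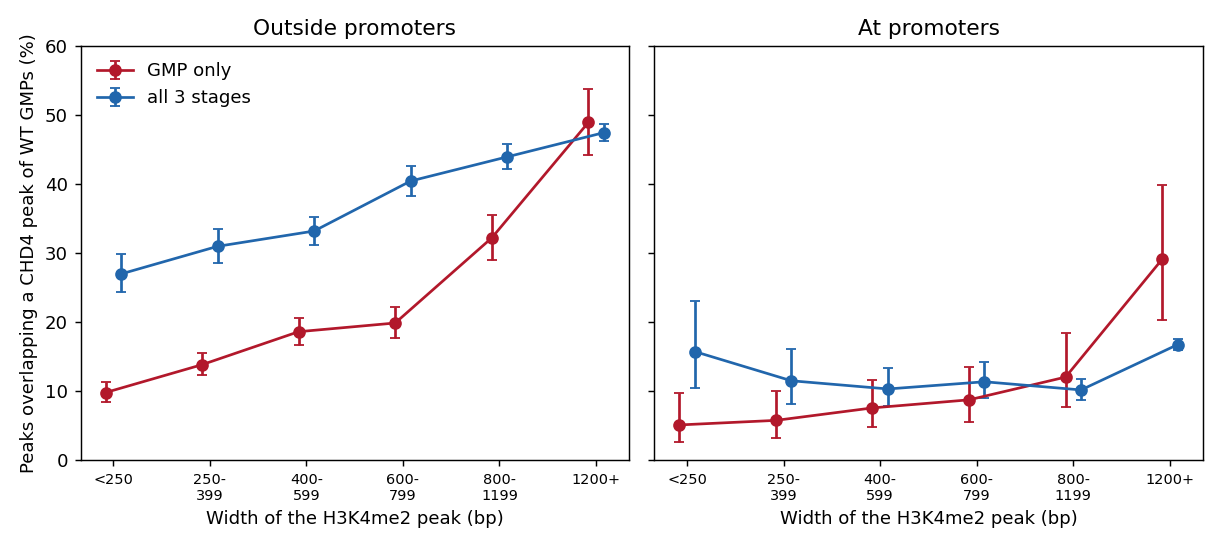
Share of H3K4me2 peaks with a CHD4 peak in WT GMPs (y axis, percent) by peak width (x axis, bp), outside and at promoters, for GMP-only peaks and peaks of all 3 stages, with 95% Wilson intervals. Outside promoters the shares lie apart in narrow peaks, 9.82% and 27.0% under 250 bp, and come together at 48.9% and 47.4% from 1200 bp.

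Seen from CHD4, 1637 sites (4.57% of 35790) lay in GMP-only peaks and 10966 (30.6%) in peaks of all 3 stages. No later H3K4me2 peak reached 1567 of the 1637, which follows from the choice of members. Only a site that extends beyond its GMP-only peak can touch a later peak. Of the GMP-only peaks with CHD4, 138 held 2 or more sites, and the most in any was 4. Klf4, with the most GMP-only peaks of any gene, had CHD4 over 9 of its 21. One of these CHD4 sites, 279 kb from Klf4, had a CHD4 fold enrichment of 52.6. It lay inside an H3K4me2 peak of 852 bp and 3.14 and was still called in Gfi1-/- GMPs. A site 222 kb from Hivep2, a zinc finger gene, had 50.3 and was also still called. Both were picked for high CHD4 enrichment among sites that carry the PU.1 core, shown in capitals above. Its presence in them is therefore no result. The core was in 11.7% of the windows around all CHD4 summits.

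The Gfi1-/- CHD4 library had 7316 peaks, and 326 GMP-only peaks (3.89%) overlapped one, against 7.86% of the peaks of all 3 stages. Of the CHD4 sites in GMP-only peaks, 457 of 1637 (27.9%) were kept without GFI1, and of those in peaks of all 3 stages 2597 of 10966 (23.7%), a difference of 4.23 points (1.97 to 6.59). From a CHD4 fold enrichment of 5 upward the share kept rose from bin to bin in both classes. It was 91.6% and 91.9% at a CHD4 fold enrichment of 20 or more, 57.8% and 54.1% from 15 to 20, and 19.5% and 20.1% from 10 to 15, and in these bins the interval of each difference held 0. From 5 to 10 the shares were 4.31% and 2.11%, and under 5 they were 18 of 201 (8.96%) and 4 of 1633 (0.245%). With 1 library per genotype these differences have no replicate check.

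ATAC peaks of neutrophils were rare in the GMP-only peaks. The deposited ATAC lists of preNeu and matNeu were identical in position and values and were used as 1 list of 16307 peaks. It overlapped 32 GMP-only peaks (0.382%, 0.271 to 0.539%) and 35.9% of the peaks of all 3 stages. The peaks shared with preNeu alone gave 0.331%, which differed from the GMP-only share by 0.0512 points (−0.266 to 0.273).

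Of 9 sequence motifs of blood cell factors, those of PU.1 and CEBP were less frequent in GMP-only peaks than in the peaks of all 3 stages. The motifs were searched on both strands in the 200 bases at the centre of peaks outside promoters, without windows that held a TA run (6714 GMP-only windows and 15608 of all 3 stages). The PU.1 core GAGGAAGT was in 2.55% against 3.31% (−0.77 points, −1.22 to −0.28). The CEBP pattern TTGCNNAA was in 8.06% against 9.10% (−1.04 points, −1.82 to −0.23). The 7 others were searched as the RUNX core TGTGGTTT, as AAATCAC for GFI1, as AGATAAG for Gata2 and its relatives, and as TGANTCA for AP-1. MYB was searched as AACNGTT and the E-box as CAGCTG. The pattern of IRF factors was a pair of GAAA words with 2 bases between them. They differed by less than 0.5 points, and each interval held 0. Among peaks of 250 to 800 bp alone the PU.1 core was in 2.77% against 4.46% (−1.69 points, −2.42 to −0.938) and the CEBP pattern in 8.38% against 9.58% (−1.20 points, −2.34 to −0.0448), and the intervals of the 7 others held 0. These cores are short, and a match is not a bound site.

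A larger gap stood against the peaks found only in preNeu. They held the CEBP pattern in 14.7% of windows, and the share in GMP-only peaks differed from it by −6.63 points (−7.64 to −5.61). The PU.1 core was in 4.67% of the preNeu-only windows. RUNX, GATA, IRF and MYB were also more frequent there and the E-box less frequent, each with an interval that did not hold 0. Against matNeu-only peaks the CEBP gap was smaller, at 10.4% and −2.33 points (−3.59 to −1.13). The median GC was 48.0% in GMP-only, 46.0% in preNeu-only and 47.0% in matNeu-only windows. Within the GMP-only peaks, those with CHD4 held the GFI1 core in 4.52% and those without in 2.29%, a difference of 2.23 points (1.16 to 3.51). The IRF pattern was in 5.60% and 3.18%, the AP-1 pattern in 8.40% and 5.69%, and the RUNX core in 3.30% and 1.84%. PU.1, at 3.73% and 2.24%, and CEBP, at 9.33% and 7.72%, were likewise more frequent with CHD4. The intervals of all these differences lay above 0, and those of GATA, MYB and the E-box held 0. The median GC was 46.0% with CHD4 and 49.0% without. Around the CHD4 summits themselves, in 1637 windows of 200 bases, the PU.1 core was in 10.3%, the CEBP pattern in 14.2% and the GFI1 core in 3.05%. Around all CHD4 summits these shares were 11.7%, 17.3% and 2.78%, so that the GFI1 core differed little there.

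Each GMP-only peak was assigned to the protein-coding gene with the nearest start, which gave 4659 genes of 22028 (21.2%). A nearest gene is an assignment by distance, and 6610 GMP-only peaks (78.9%) shared it with a peak of all 3 stages. A single peak was assigned to 2915 genes, 3 or more to 811 genes and 10 or more to 36. The median RNA level in GMPs was 1.39 TPM for genes with none, 0.867 TPM with 1, 1.66 TPM with 2, 2.89 TPM with 3 or 4, 4.84 TPM with 5 to 9 and 6.85 TPM with 10 or more. It fell in matNeu in every class, to 3.25 TPM in the last.

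Of the 2592 of these genes that were tested, 1171 fell (45.2%) and 444 rose (17.1%) from GMPs to preNeu, where 46.8% and 15.4% of all tested protein-coding genes did. From GMPs to matNeu 1323 fell (51.0%) and 693 rose (26.7%), against 57.3% and 22.5%. From preNeu to matNeu 889 fell (34.3%) and 729 rose (28.1%), against 42.8% and 22.6%. The split depended on the scaling of TPM. With equal medians 701 fell and 744 rose in preNeu, 840 fell and 1219 rose in matNeu, and 586 fell and 1154 rose from preNeu to matNeu. All 13061 tested genes moved with this scaling too, to 23.6% that fell and 26.1% that rose in preNeu and 34.1% and 43.1% in matNeu, against 27.0% and 28.7%, and 32.4% and 47.0%, of the genes nearest to a GMP-only peak.

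The number of shared peaks around a gene went with its change, and so the genes were also compared at like numbers. Among genes with 5 to 9 peaks of all 3 stages, those that also had 3 or more GMP-only peaks fell in preNeu in 49.4% of cases and rose in 20.9% (172 tested). Those with no GMP-only peak fell in 24.2% and rose in 41.3% (281 tested). In matNeu the shares were 51.7% and 27.3% against 26.7% and 58.4%. Under equal medians 34.9% against 11.0% fell in preNeu and 32.0% against 12.5% in matNeu. The gap was not as wide in the other classes. With 1 peak of all 3 stages the shares that fell were 65.1% and 54.4% in preNeu and 68.3% and 67.8% in matNeu, with 2 peaks 56.9% and 44.4%, and 55.2% and 55.6%, and with 3 or 4 peaks 47.8% and 35.5%, and 53.0% and 45.8%. With 10 or more they were 32.9% and 31.8% in preNeu and 36.5% and 27.3% in matNeu, on 85 and 22 genes.

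**Figure D4:**
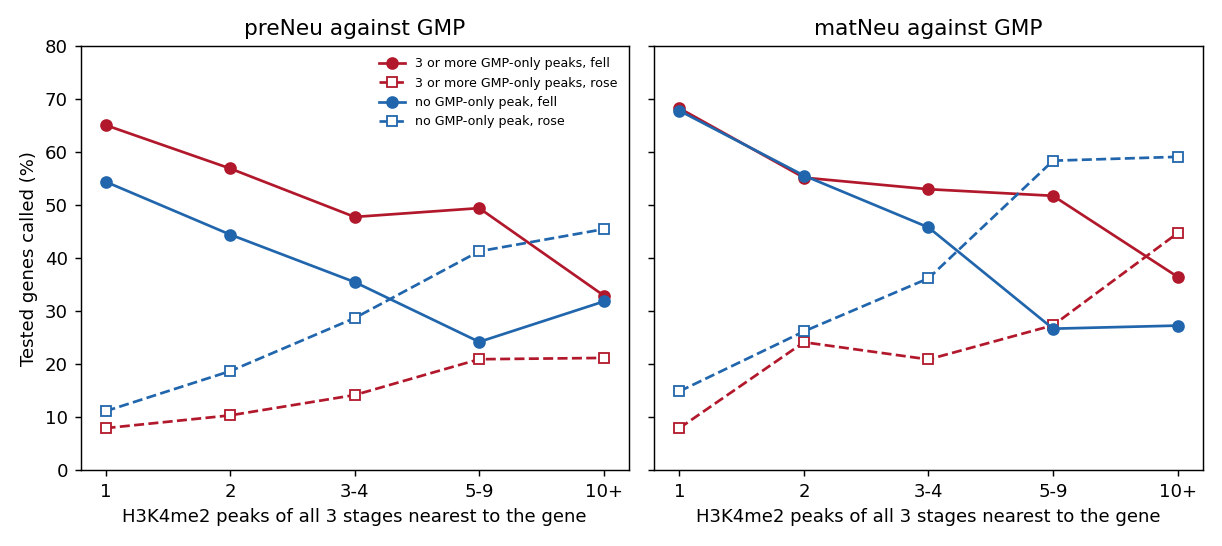
Share of tested genes that fell or rose against GMPs (y axis, percent), by the number of H3K4me2 peaks of all 3 stages nearest to the gene (x axis), for genes with 3 or more GMP-only peaks and genes with none. At 5 to 9 shared peaks, 49.4% of the former and 24.2% of the latter fell in preNeu.

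The genes with the most GMP-only peaks were Klf4 (21), Irf8 (18), Zeb2 (16), Cited2 (16), Lmo4 (15), Adgrl2 (15), Haao (14), Rgs3 (13), Ankrd55 (13) and Gse1 (13). Klf4, a transcription factor of monocytes, was at 6.64, 4.67 and 5.43 TPM in GMPs, 0.142, 0 and 0.656 TPM in preNeu and 0.251, 0.254 and 1.09 TPM in matNeu. Its GMP libraries did not overlap the others, and it fell by 2.40 ± 0.31 and 2.13 ± 0.31 (adjusted p = 8.1e-05 for both). Its peaks lay 39.4 to 413 kb from the gene and covered 17.9 kb in sum.

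Zeb2, a repressor that steers progenitors to monocytes and dendritic cells, was at 160, 142 and 134 TPM in GMPs, 4.59, 6.78 and 7.41 TPM in preNeu and 35.2, 25.0 and 36.1 TPM in matNeu. All 3 stages stood apart, with preNeu the lowest. Haao, an enzyme of tryptophan breakdown, was likewise lowest in preNeu, with 79.5, 55.0 and 67.3 TPM in GMPs, 3.39, 5.51 and 4.02 TPM in preNeu and 101, 136 and 93.0 TPM in matNeu. Both fell in preNeu (−4.35 ± 0.21 and −3.69 ± 0.22) and rose from preNeu to matNeu (2.19 ± 0.21 and 4.39 ± 0.22). Adgrl2, an adhesion receptor, was at 3.97 to 6.70 TPM in GMPs and at most 1.92 TPM later.

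Others of the 10 rose. Cited2, a co-regulator of p300 needed in stem cells, was at 5.06, 7.42 and 17.9 TPM in GMPs, 40.8, 40.8 and 39.3 TPM in preNeu and 8.20, 19.5 and 18.5 TPM in matNeu. It rose by 2.06 ± 0.41 in preNeu (adjusted p = 0.0015), and matNeu overlapped GMPs (0.65 ± 0.41, adjusted p = 0.18). Lmo4, a LIM-only adaptor, was at 80.2 to 92.3 TPM in GMPs, 180 to 193 TPM in preNeu and 136 to 173 TPM in matNeu, 3 ranges that did not overlap, and it rose in both stages. Rgs3, a regulator of G protein signalling, was at 5.99, 7.15 and 6.94 TPM in GMPs, 7.43, 13.3 and 5.91 TPM in preNeu and 53.8, 60.8 and 87.8 TPM in matNeu. It rose by 3.13 ± 0.29 in matNeu (in preNeu 0.29 ± 0.29, adjusted p = 0.41). Gse1 passed the test against GMPs in neither stage, and Ankrd55 was under 1 TPM in every library. Genes that were assigned many GMP-only peaks thus fell, rose or were silent. The peaks were often far off, at 15.8 to 1009 kb for Zeb2, 28.9 to 1379 kb for Cited2 and 71.5 to 575 kb for Lmo4. Others began closer, at 0.21 kb for Rgs3 and 1.13 kb for Irf8.

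**Figure D5:**
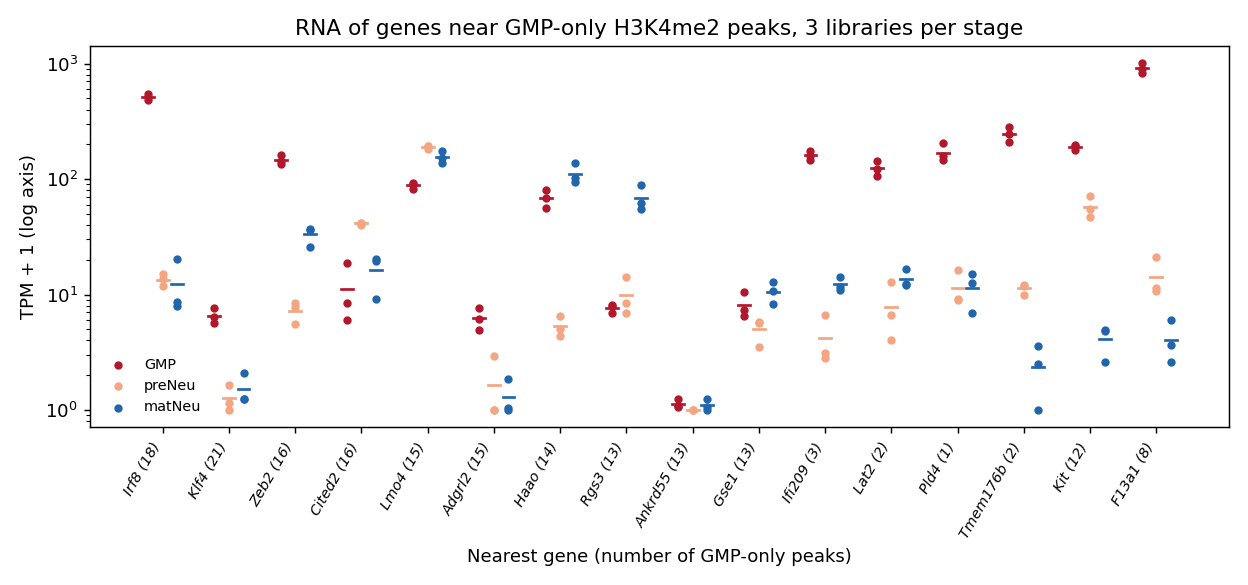
RNA level (y axis, TPM + 1 on a log scale) in the 3 libraries of GMP, preNeu and matNeu (x axis), for the 10 genes with the most GMP-only peaks and 6 others. Points are libraries and lines are means. Irf8 drops from 483 to 548 TPM in GMPs to at most 19.2 TPM later, and Cited2, Lmo4 and Rgs3 lie higher in preNeu or matNeu than in GMPs.

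Lists of marker genes were then set against the share of all protein-coding genes that were nearest to a GMP-only peak (21.2%) and to 3 or more (3.68%). Among tested protein-coding genes these shares were 21.8% and 4.49%. They were not matched for the number of peaks of all 3 stages, whose median was 3 in the stem and monocyte lists and 1 in the lymphoid list. Among 34 stem and progenitor genes, 22 were nearest to a GMP-only peak and 9 to 3 or more, with 82 peaks in all. Of the 19 tested among the 22, 15 fell and 2 rose in preNeu and 18 fell and 1 rose in matNeu, with a median log2 change of −3.76 in matNeu against −0.92 over all genes. The whole list moved likewise, with 21 of 27 tested that fell in preNeu and 25 in matNeu, against 46.8% and 57.3% of all tested protein-coding genes. Kit, the stem cell factor receptor, had 12 GMP-only peaks and was at 194, 191 and 177 TPM in GMPs, 45.9, 53.7 and 70.0 TPM in preNeu and 3.83, 3.89 and 1.62 TPM in matNeu. Its 3 stages stood apart. An annotated start of Kit lay under a GMP peak of 8309 bp that was found in all 3 stages. Zfpm1, the GATA cofactor FOG1, had 11 peaks and under 1 TPM in every library. Runx1 and Sox4 had 10 each, Cdk6 had 6 and Adgrg1 had 5, and these 4 fell in both stages. Cdk6, a cell cycle kinase of progenitors, was at 164 to 170 TPM in GMPs, 18.7 to 30.5 TPM in preNeu and 1.74 to 2.19 TPM in matNeu.

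Monocyte and dendritic cell genes gave 16 of 21, with 8 at 3 or more and 98 peaks in all, 19 of them with CHD4. Of 15 tested, 10 fell and 4 rose in preNeu and 8 fell and 4 rose in matNeu, with a median log2 change of −2.13. Of the 20 tested in the whole list, 12 fell and 7 rose in preNeu and 9 fell and 8 rose in matNeu. Over all tested protein-coding genes 46.8% fell and 15.4% rose in preNeu, and 57.3% fell and 22.5% rose in matNeu. Beside Klf4, Irf8 and Zeb2, the most peaks were at Tcf4, Ly86 and F13a1, with 8 each. F13a1, the A chain of coagulation factor XIII, was at 1005, 893 and 821 TPM in GMPs, 9.70, 10.3 and 20.0 TPM in preNeu and 2.63, 1.58 and 4.98 TPM in matNeu, and fell by 6.05 ± 0.32 and 7.88 ± 0.32. Ly86, the partner of the toll-like receptor RP105, was at 127 to 178 TPM in GMPs and at 2.54 to 4.55 TPM in the 6 later libraries. Tcf4, a transcription factor of plasmacytoid dendritic cells, was at 44.0 to 51.1 TPM in GMPs and at most 9.16 TPM later. In all 3 genes the GMP libraries lay above the rest. Annotated starts of Klf4, Zeb2 and F13a1 lay under GMP peaks of 5246, 14178 and 6158 bp that were found in all 3 stages.

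Lymphoid genes gave 14 of 23, but 1 at 3 or more. Of the 11 tested, 1 fell and 4 rose in preNeu and 1 fell and 6 rose in matNeu, with a median log2 change of 1.49. Of the 16 tested in the whole list, 3 fell and 7 rose in preNeu and 2 fell and 9 rose in matNeu. Of all tested protein-coding genes 15.4% rose in preNeu and 22.5% in matNeu. Satb1, a chromatin organiser with 6 peaks, was at 18.3, 17.1 and 10.8 TPM in GMPs, 21.9, 23.4 and 28.3 TPM in preNeu and 40.2, 41.7 and 51.7 TPM in matNeu, and its 3 stages did not overlap. Lef1 did not pass the test in either stage. Cd79b, part of the B cell receptor, was the exception and fell, from 77.9 to 93.7 TPM in GMPs to 17.3 to 27.4 TPM in preNeu.

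Mast cell, basophil and eosinophil genes gave 7 of 15, primary granule genes 3 of 11, and erythroid and megakaryocyte genes 3 of 18. In matNeu 2 of 7 tested fell and 2 rose in the first list, 3 of 3 fell in the second and 2 of 2 in the third. Over the whole lists 9 of 15, 11 of 11 and 9 of 16 tested genes fell in matNeu, against 57.3% of all tested protein-coding genes. The first and the last of these lists were near that share. Gata2, a transcription factor of stem and mast cells, was at 13.6, 41.2 and 42.2 TPM in GMPs and at no more than 3.56 TPM later. Proliferation genes gave 4 of 20, with 19 peaks at Ccnd1, Mki67, Ccnd2 and Rrm2. These 4 fell in matNeu, as did all 20 genes of the list. In preNeu the cyclins Ccnd1 and Ccnd2 fell and Mki67 rose, and Rrm2 did not pass the test.

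Neutrophil maturation genes gave 4 of 20, near the 21.2% of all genes, with 1 peak each at Padi4, Ly6g, Csf3r and Mmp8. All 4 rose in preNeu and in matNeu, and in the whole list 19 of 20 rose in each, against 15.4% and 22.5% of all tested protein-coding genes. Mmp8, a collagenase of neutrophils, was at 10.1, 5.07 and 8.57 TPM in GMPs, 174, 206 and 234 TPM in preNeu and 5831, 7533 and 6443 TPM in matNeu. Its GMP-only peak, 522 bp wide and 4.79 kb from the start, overlapped a CHD4 peak.

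The largest changes among the nearest genes went both ways. The largest falls from GMPs to matNeu were in Ctsg, the protease cathepsin G (−10.76 ± 0.40), Myc (−8.37 ± 0.23) and F13a1. The largest rises were in Il1r2, the decoy receptor of interleukin 1 (10.10 ± 0.47), Sirpb1b (9.66 ± 0.20) and Mmp8 (9.57 ± 0.21). Il1r2 was at 1.50, 4.80 and 0 TPM in GMPs and 2774, 2474 and 2774 TPM in matNeu. Of these 6 genes, F13a1 had 8 GMP-only peaks, Il1r2 had 3 and each of the others had 1. Sirpb1b has close copies, and its level is uncertain for that reason.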

How the data were processed

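H3K4me2, CHD4 and ATAC peak lists (1 library each) and RNA-seq of GMPs, preNeu and matNeu (3 libraries each) were analysed, grouped by sample title. The authors deposited each peak with a fold enrichment, a linear ratio, and a −log10 q-value within its library. Read depth is not given in the sources used here, so the precision of each call is unknown. RNA was deposited by the authors as TPM, which keeps no depth. The submitters' processing notes name Trimmomatic 0.36, BWA 0.7.17, MACS2 2.1.0 and kallisto 0.44.0 on mm10. A list with fewer reads or weaker enrichment yields fewer peaks.

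Peaks were overlapped (at least 1 bp) and placed on GRCm38 with GENCODE annotation in Python 3.11.15 (pandas 2.3.3, pysam 0.24.0). Printed gene-start sequence is from RefSeq on GRCm38. Shares carry 95% Wilson intervals and differences Newcombe intervals. Genes that reached 1 TPM in 3 or more of 9 libraries were tested on log2(TPM + 1), which understates the change of low genes, by limma 3.58.1 in R 4.3.3 with a variance trend and adjusted p under 0.05. The scripts were tested on simulated data.

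Named were the 10 most enriched peaks (chromosome 18 left out), the 10 genes nearest to the most GMP-only peaks, up to 6 genes per marker list, the 10 promoter genes highest in GMPs and the 3 largest changes each way. Members, lists and tests were chosen with earlier results of these data known. Alternatives were stricter or equalised peak lists, other overlaps, promoters, pseudocounts, filters and scalings, a replicate block and leaving out each library. Leaving out TA-run peaks and taking members of at least 800 bp were added after seeing the data. The H3K4me3 and GFI1 lists, which reach beyond chromosome ends of GRCm38, were not used.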

Additional observations from a re-analysis of the deposited data

How the results depend on the processing

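The number of GMP-only peaks moved most with the peak lists: 1659 when every list was held to −log10 q of 3 or more, 20355 with later lists reduced to the covered length of the GMP list, 1065 when the members alone were held to it, and 1407 among members of at least 800 bp. In that order, the share at promoters was 35.5%, 16.6%, 22.7% and 15.6%, and the share with CHD4 was 9.89%, 28.2%, 9.11% and 35.0%. With equal numbers of peaks the shares were 14.1% and 19.6%, and without TA-run peaks 12.8% and 19.3%. CHD4 was at 18.7% when an overlap of 50% of the shorter peak was needed and at 11.5% when its summit had to lie inside. The ATAC share was 0.663%, 2.49% and 0.563% in the first 3 settings. The CHD4 share was below that of the peaks of all 3 stages under each of these settings except equal covered length (1.35 points higher, 0.442 to 2.26) and members of at least 800 bp, where it was above with promoters included and below outside them (−8.26 points).

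Scaling to equal medians gave 701 nearest genes that fell and 744 that rose in preNeu, 840 and 1219 in matNeu, and 586 and 1154 from preNeu to matNeu, and all 13061 tested genes moved likewise (3081 and 3403, 4450 and 5630, 3496 and 5097). Quantile normalization gave 752 and 734 in preNeu and 1123 that rose in matNeu. A log2 change of at least 1 left 290 that rose in preNeu. Leaving out each library gave 1034 to 1123 that fell and 401 to 440 that rose in preNeu, 1284 to 1321 and 654 to 670 in matNeu, and 808 to 868 and 653 to 708 from preNeu to matNeu.

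The replicate numbers did not pair the libraries (correlations of same-numbered deviations −0.039 to 0.123, 1 of 9 over 0.1). A replicate block gave 1158 that fell and 449 that rose in preNeu, 1326 and 689 in matNeu, and 880 and 725 from preNeu to matNeu.

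Changes from GMPs to preNeu that missed the threshold turned direction in 5 genes: Mcpt8 (0.28 with equal medians, 0.0646 with quantiles), Khdrbs2 (0.44 under both, −0.47 to 0.16 when single libraries were left out), Tmem72 (0.32 and 0.40), Gse1 (0.0046 with quantiles) and Rgs3 (−0.0071 to 0.52 when single libraries were left out). The cause of these shifts was not tested.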

Other observations

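Beside transcription factors, genes near several GMP-only peaks included a surface receptor and an antiproliferative gene. Adgrg1, an adhesion receptor of stem cells, had 5 GMP-only peaks within 5.79 kb of its starts and was at 132, 173 and 153 TPM in GMPs, 2.83, 3.54 and 4.97 TPM in preNeu and 0, 1.55 and 1.00 TPM in matNeu. Its GMP libraries stood far above the others. Btg1, which restrains cell division and is named here for a TA-run peak 90.6 kb away, had 8 GMP-only peaks and went the opposite way, with 8.91, 18.3 and 13.1 TPM in GMPs and 533, 598 and 1074 TPM in matNeu.

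The GMP-only peaks farther than 100 kb from any later peak were narrower and more enriched than those with a later peak 1 to 10 kb away, with medians of 305 against 480 bp and 2.91 against 2.55, and 7.67% against 19.4% held CHD4. TA-run peaks, with medians of 291 bp and 3.42 and CHD4 in 1.41%, were not left out here, and their part in this was not tested. Gap, width and enrichment also belong to the values that the choice of members used.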
